A study of Homo sapiens with 17 samples.

Results

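The genes described here are 35 of the 63187 in the RNA count table that make cholesterol and fatty acids or control and serve that synthesis, chosen by symbol: 18 enzymes of the sterol arm, 6 genes of its control and of sterol transport, and 11 enzymes of the fatty acid arm. A total of 148 of the 58372 counted open chromatin peaks carry the symbol of a member in the authors' annotation. HepG2 is a human hepatocellular carcinoma line, labelled as hepatocyte and WT in genotype, and 5-azacytidine is a cytidine analogue that inhibits DNA methyltransferases. Cells were kept for 4 days in 0, 2 or 10 µM of it, in medium with fetal bovine serum that was replaced daily. RNA-seq gave 3 libraries per dose, and ATAC-seq, which reads open chromatin through the cuts of a transposase, gave 3 at 0 µM, 3 at 2 µM and 2 at 10 µM. The replicates are described as biological, and nothing says whether they came from separate cultures, so the p-values measure the spread between these libraries only.

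Cholesterol and fatty acids are both built from cytosolic acetyl-CoA. The mevalonate pathway joins acetyl-CoA units into isoprenoids, squalene and lanosterol, and a set of endoplasmic reticulum enzymes turns lanosterol into cholesterol, while ATP citrate lyase, acetyl-CoA carboxylase and fatty acid synthase lead to palmitate, which is then elongated and desaturated. The transcription factors SREBP-1 and SREBP-2 drive both arms in liver cells. The carrier SCAP takes them from the endoplasmic reticulum to the Golgi for cleavage when sterols are low, and the INSIG proteins hold them back when sterols are high.

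RNA libraries held 35553052 to 46430168 counts and ATAC libraries 2896671 to 7864321 counts in peaks. Levels are in CPM, counts relative to the scaled library total, in the order of replicates 1, 2 and 3. They compare libraries and not genes, because gene length is not taken into account. Changes are log2 ratios ± SE from edgeR, and a gene or peak is said to rise or fall only at an adjusted p under 0.05. The 2 µM replicate 3 RNA library stood apart in these genes: it was the highest of its dose in 31 of 33 measured members. That count was not made over all genes. It was not only the members that changed less in this library. The 611 genes that rose at 2 µM had median log2 changes of 2.58, 2.55 and 1.74 in replicates 1, 2 and 3. The 202 that fell had -1.28, -1.25 and -0.81. Replicate 3 at 0 and at 2 µM also carried more mitochondrial mRNA (0.271% and 0.231% of their counts, where the other 7 libraries had 0.0664% to 0.143%). All 13 hepatocyte markers were present, and their summed level was 24446 to 43640 CPM at 0 µM, 16142 to 26261 CPM at 2 µM and 1199 to 1933 CPM at 10 µM. Of 10 leukocyte markers 4 exceeded 1 CPM in any library, their sum was 2336 to 3458 CPM untreated and 58.3 to 89.9 CPM at 10 µM, and PTPRC and MS4A1 were at 0 throughout. Sums of the fibroblast and stellate cell list (3 of 10 over 1 CPM) and the endothelial list (2 of 8) were at most 56.5 CPM in any library, and the cholangiocyte list (4 of 8) read 1024 to 1292 CPM untreated and 516 to 1207 CPM at 10 µM. The part of any of these cells in the results was not tested.

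At 10 µM RNA of both arms was far below the untreated level, most deeply for the desaturases SCD and FADS2 and the thiolase ACAT2. Of the 33 members that passed the filter on low counts, 28 fell and 1, the phosphatidate phosphatase LPIN1, rose, while in all 18999 genes tested 25.1% fell and 23% rose. The median change was -2.10 in the members and -0.02 in all genes, and in 30 members every 10 µM library was below every untreated one (29% of all genes). Scaling by total counts instead moved the median of all genes to 0.24, with 19.7% lower and 30.5% higher, and left 25 members lower and LPIN1 higher. The hepatocyte markers moved in the same direction, with 13 of 13 lower and a median of -4.53, and their part in the fall of the members was not tested. In RNA from bulk cells, fewer cells that express a gene and less RNA per cell cannot be told apart. INSIG1 and ME1 did not pass the filter and are described further on.

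**Figure D1:**
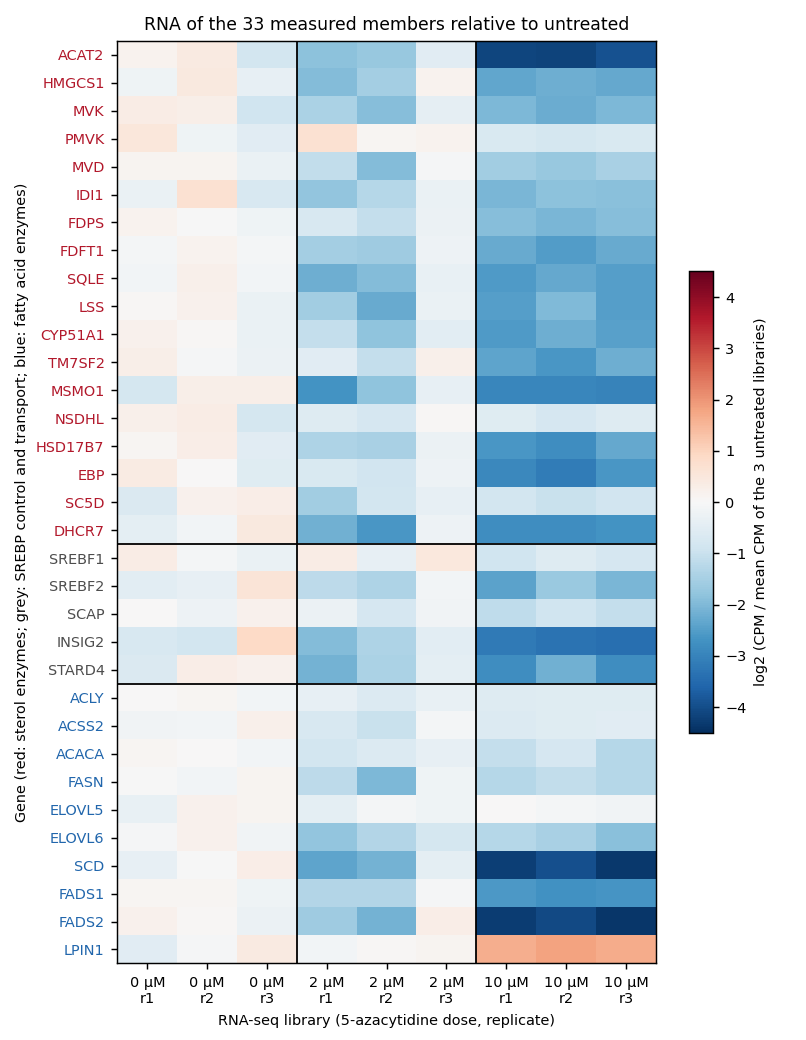
RNA of the 33 measured members (rows, grouped by arm) in the 9 RNA-seq libraries (columns), as the log2 ratio of the CPM to the mean of the 3 untreated libraries, from blue (lower) to red (higher). The 3 libraries at 10 µM are blue in nearly every row with LPIN1 as the red row, and at 2 µM replicates 1 and 2 are blue where replicate 3 is close to untreated.

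Of the 7 enzymes from acetyl-CoA to farnesyl diphosphate measured here 6 fell at 10 µM. ACAT2, the cytosolic thiolase that joins acetyl-CoA units, read 408, 481 and 209 CPM untreated and 20.9, 20.5 and 24.4 CPM at 10 µM, a 16.7-fold fall (-4.06 ± 0.40, adjusted p = 4.77e-06). HMGCS1, the HMG-CoA synthase, went from 183, 280 and 162 CPM to 41.3, 46.0 and 41.9 CPM (-2.28 ± 0.44, adjusted p = 0.000951). No library at 10 µM reached the lowest untreated one in either gene. The mevalonate kinase MVK fell from 74.2, 71.4 and 31.9 CPM to 14.6, 12.5 and 14.4 CPM (-2.10 ± 0.38, adjusted p = 0.000596), and the decarboxylase MVD from 138, 140 and 103 CPM to 43.0, 39.3 and 45.7 CPM (-1.57 ± 0.36, adjusted p = 0.00279). The isomerase IDI1 fell from 174, 343 and 130 CPM to 51.4, 60.3 and 58.0 CPM (-1.93 ± 0.39, adjusted p = 0.00119). FDPS, which makes farnesyl diphosphate, the branch point between sterols and other isoprenoids, fell from 314, 277 and 244 CPM to 74.7, 66.5 and 74.5 CPM (-1.95 ± 0.22, adjusted p = 1.32e-05). PMVK, the kinase between MVK and MVD, was the exception in this stretch, with 10.3, 6.35 and 5.14 CPM untreated and 4.47, 4.19 and 4.53 CPM at 10 µM (-0.72 ± 0.30, adjusted p = 0.0603); without the untreated replicate 3 it passed (adjusted p = 0.0139), as it did by DESeq2 (0.0411). ACAT2 shares 615 bases with TCP1 and MVK shares 233 with MMAB in the RefSeq annotation, and reads from such overlaps cannot be told apart because no source at hand says whether the counting used strand.

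The enzymes that make and close squalene fell by similar amounts. FDFT1, the squalene synthase, read 253, 301 and 251 CPM untreated and 55.2, 47.3 and 56.3 CPM at 10 µM (-2.34 ± 0.32, adjusted p = 6.92e-05). SQLE, the squalene epoxidase, fell from 228, 287 and 226 CPM to 41.8, 49.5 and 44.6 CPM (-2.45 ± 0.40, adjusted p = 0.000256), and the lanosterol synthase LSS from 171, 192 and 135 CPM to 30.1, 41.7 and 30.01 CPM (-2.29 ± 0.39, adjusted p = 0.000386). Every 10 µM library of these 3 genes was far below the lowest untreated one.

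Past lanosterol, 7 of the 8 enzymes fell. The 14-demethylase CYP51A1 went from 19.5, 17.4 and 13.8 CPM to 2.92, 3.71 and 3.13 CPM (-2.38 ± 0.32, adjusted p = 6.84e-05), and the sterol reductase TM7SF2 from 71.1, 58.0 and 49.7 CPM to 11.6, 9.78 and 13.1 CPM (-2.38 ± 0.30, adjusted p = 3.55e-05). For MSMO1, the C4-methyl oxidase, the fall was 7.78-fold, from 135, 284 and 283 CPM to 30.3, 30.8 and 29.1 CPM (-2.96 ± 0.48, adjusted p = 0.000256). MSMO1 levels were almost the same in the 3 libraries at 10 µM and spread widely in untreated cells. HSD17B7, which acts in the same demethylation, fell from 51.9, 59.3 and 34.3 CPM to 7.87, 6.995 and 9.73 CPM (-2.57 ± 0.33, adjusted p = 4.56e-05). The sterol isomerase EBP fell 7.33-fold, from 54.7, 43.5 and 29.4 CPM to 5.65, 4.82 and 6.92 CPM (-2.87 ± 0.28, adjusted p = 4.31e-06), and DHCR7, which makes cholesterol from 7-dehydrocholesterol, from 97.9, 121 and 181 CPM to 19.3, 19.01 and 20.5 CPM (-2.77 ± 0.50, adjusted p = 0.000568). NSDHL and SC5D differed from these. NSDHL, the decarboxylating dehydrogenase of the C4 demethylation, did not pass (50.1, 53.4 and 24.7 CPM against 29.1, 25.1 and 28.3 CPM, -0.63 ± 0.29, adjusted p = 0.0851), and its groups overlapped through the untreated replicate 3, without which it passed (adjusted p = 0.0036), as it did without the filter on low counts (0.0313). SC5D, the desaturase before DHCR7, fell from 56.9, 100.5 and 108 CPM to 49.9, 44.5 and 48.8 CPM (-0.89 ± 0.29, adjusted p = 0.0224), a call that was lost without untreated replicate 2 (adjusted p = 0.0592), without any 1 of the 10 µM libraries (0.0535 to 0.0785) and under scaling by total counts (0.0893).

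Among the genes of SREBP control, INSIG2 and SREBF2 fell most. SREBF2, which encodes the SREBP of sterol synthesis, read 63.8, 68.7 and 133 CPM untreated, 38.8, 33.6 and 81.6 CPM at 2 µM and 16.6, 27.8 and 21.05 CPM at 10 µM, a 4.06-fold fall at 10 µM (-2.02 ± 0.37, adjusted p = 0.000614). SREBF1, which encodes the SREBP of fatty acid synthesis, changed less: 105, 78.6 and 68.2 CPM untreated, 106, 64.3 and 118 CPM at 2 µM and 45.5, 55.6 and 50.3 CPM at 10 µM (-0.73 ± 0.24, adjusted p = 0.0218). The SREBF1 call was lost without untreated replicate 1 (adjusted p = 0.0997), without 10 µM replicate 1 (0.0899) or 3 (0.0685), and under total counts (0.124). The carrier SCAP fell from 124, 104 and 143 CPM to 56.5, 65.8 and 58.2 CPM (-1.04 ± 0.20, adjusted p = 0.000972). INSIG2, a retention factor, fell 9.85-fold at 10 µM, from 93.9, 87.2 and 287 CPM to 17.03, 15.6 and 14.9 CPM (-3.30 ± 0.47, adjusted p = 9.09e-05), with untreated replicate 3 far above the other 2. Its relative INSIG1 was counted near 0 in all 9 libraries (0 to 0.512 CPM) and was not tested, and the table cannot show whether so low a count comes from the cells or from the counting. The sterol carrier STARD4 fell from 66.5, 126 and 117 CPM to 14.8, 22.8 and 15.003 CPM (-2.56 ± 0.39, adjusted p = 0.000158).

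The fatty acid arm was uneven at 10 µM, with its deepest falls at the desaturases. SCD, which puts the double bond into stearate, read 1648, 2113 and 2591 CPM untreated, 406, 481 and 1576 CPM at 2 µM and 113, 135 and 105 CPM at 10 µM, an 18.02-fold fall (-4.17 ± 0.46, adjusted p = 1.23e-05). FADS2, the delta-6 desaturase, fell 18.8-fold, from 254, 229 and 187 CPM to 11.7, 13.2 and 10.8 CPM (-4.23 ± 0.52, adjusted p = 2.89e-05). FADS1, the delta-5 desaturase, fell from 313, 318 and 257 CPM to 49.7, 45.2 and 47.2 CPM (-2.64 ± 0.31, adjusted p = 2.09e-05). The annotated FADS1 and FADS2 overlap by 801 bases. The steps that make palmitate changed less. ACLY, which supplies cytosolic acetyl-CoA from citrate, fell from 585, 607 and 533 CPM to 387, 394 and 395 CPM (-0.55 ± 0.16, adjusted p = 0.0136), and the call was lost without any 1 of the 10 µM libraries (adjusted p = 0.0515 to 0.0671), under total counts (0.16) and without the filter on low counts (0.0678). ACACA, the acetyl-CoA carboxylase, fell 2.03-fold, from 174, 166 and 150 CPM to 77.0, 97.1 and 67.1 CPM (-1.02 ± 0.19, adjusted p = 0.000844). FASN, the fatty acid synthase, fell 2.35-fold, from 661, 615 and 728 CPM to 273, 307 and 271 CPM (-1.23 ± 0.34, adjusted p = 0.00921).

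Of the elongases, ELOVL6, which extends palmitate, fell from 48.4, 57.7 and 45.1 CPM to 20.6, 18.3 and 13.5 CPM (-1.53 ± 0.26, adjusted p = 0.000354). ELOVL5, which extends polyunsaturated fatty acids, read 91.1, 131 and 124 CPM untreated and 116, 109 and 104 CPM at 10 µM, with overlapping groups (-0.07 ± 0.19, 95% confidence interval -0.47 to 0.33, adjusted p = 0.772). The acetyl-CoA synthetase ACSS2 was at 88.8, 92.4 and 118 CPM and then 65.1, 68.3 and 69.5 CPM and did not pass (-0.56 ± 0.23, adjusted p = 0.0577); it passed without 2 µM replicate 2 (adjusted p = 0.0377) or 3 (0.0239) and in a fit of 0 and 10 µM alone (0.0201). LPIN1, which makes diacylglycerol for triglycerides, rose from 29.1, 39.7 and 54.9 CPM to 127, 144 and 132 CPM (1.71 ± 0.22, adjusted p = 4.62e-05). The malic enzyme ME1, a source of NADPH, was at 0 to 0.154 CPM in the 9 libraries and was not tested.

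**Figure D2:**
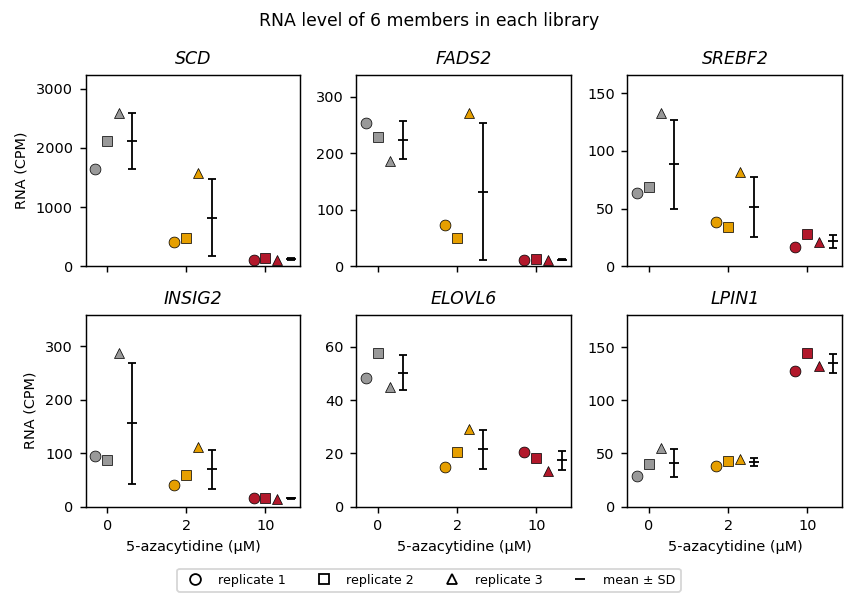
RNA level in CPM (vertical axes, from 0) of SCD, FADS2, SREBF2, INSIG2, ELOVL6 and LPIN1 in each library at 0, 2 and 10 µM, with symbols for the replicates and the mean ± SD (n = 3) beside them. At 2 µM replicate 3 stands above replicates 1 and 2 in SCD, FADS2, SREBF2 and INSIG2, and the 10 µM libraries of the 6 genes lie close together.

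The sterol arm was further below untreated than the fatty acid arm at 10 µM. In the sterol enzymes 16 of 18 fell with a median of -2.32, in the control and transport genes 5 of 5 measured fell with a median of -2.02, and in the fatty acid enzymes 7 of 10 measured fell and 1 rose with a median of -1.13. Per library, the median of the sterol enzymes minus that of the fatty acid enzymes was 0.17, 0.18 and -0.29 in untreated cells and -1.14, -1.22 and -0.97 at 10 µM, so the libraries of these doses did not overlap. This contrast of arms was not tested, since the members of an arm are not replicates. The arms themselves overlapped: the estimates of SCD and FADS2 were larger in size than that of any sterol enzyme, and those of SC5D, PMVK and NSDHL smaller than those of ACACA, FASN and ELOVL6. Summed over all 35 members, RNA was 6838 to 7950 CPM untreated and 1925 to 2053 CPM at 10 µM.

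**Figure D3:**
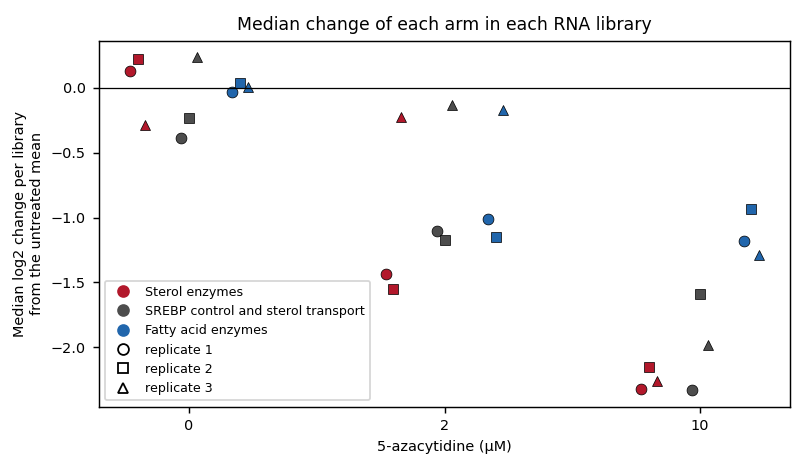
Median log2 change of each arm from the untreated mean (vertical axis) in each RNA library, by dose (horizontal axis), with colours for the arms and symbols for the replicates. At 10 µM the sterol enzymes lie at -2.15 to -2.32 and the fatty acid enzymes at -0.93 to -1.29, and at 2 µM replicate 3 lies near 0 in every arm.

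At 2 µM the result depended on replicate 3. Over all libraries only ELOVL6 fell, from 48.4, 57.7 and 45.1 CPM to 14.9, 20.4 and 29.4 CPM (-1.22 ± 0.26, adjusted p = 0.0178), beside 1.06% of all genes that fell and 3.22% that rose. Even the highest of its 2 µM libraries was under the lowest untreated one. That call was lost without untreated replicate 2 (adjusted p = 0.0531) and without 2 µM replicate 1 (0.0896) or 2 (0.0865). The other members leaned the same way without passing: 30 of 33 log2 changes were below 0, beside 50.9% in all genes. By edgeR 24 of the 33 were lower at an unadjusted p under 0.05, beside 1501 of all 18999 genes. In 10 members the 3 libraries lay below all untreated ones (8.01% of all genes), and the median was -0.84 in the members against -0.01 in all genes. In replicates 1 and 2 of this dose 29 and 29 of 33 members lay below every untreated library, and in replicate 3 this held for 10. The share of all genes below every untreated library was not computed for single libraries. The sterol enzymes had median changes of -1.43 and -1.55 in replicates 1 and 2 and -0.23 in replicate 3, and the fatty acid enzymes of -1.01, -1.15 and -0.17. For example, SQLE read 53.6, 63.9 and 195 CPM, and DHCR7 29.4, 21.7 and 112 CPM, at 2 µM.

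Without 2 µM replicate 3, 23 of 33 members fell (2.2% of all genes did), among them SCD (adjusted p = 0.000197), SQLE (0.000195), DHCR7 (0.000328), FDFT1 (0.000752) and FADS2 (0.000725). Without both replicates 3 of 0 and 2 µM 27 members fell (4.09% of all genes). Leaving out untreated replicate 3 alone gave 7 members lower (2.34%). Replicate 3 was the highest 2 µM library in 31 of 33 members, and the lowest untreated one in 21. Leaving these libraries out therefore enlarged the falls of most members in advance. The counts and p-values without them show the dependence on these libraries and are no separate test. Over all tested genes, same-numbered libraries of these doses deviated together weakly (correlations of 0.194, 0.264 and 0.283). The sterol enzymes did not follow this. Their median in replicate 3 was the lowest untreated one (-0.28, against 0.13 and 0.22) but the highest at 2 µM (-0.23, against -1.43 and -1.55). When the fit over all doses held the replicate number as a block, 6 members fell, namely ELOVL6, SQLE, MSMO1, DHCR7, STARD4 and SCD (1.59% of all genes). The same block in a fit of 0 and 2 µM alone gave 8 (1.77%). DESeq2 called 10 members lower (2.84% of all genes), and edgeR without the filter on low counts 21 (1.93%). No setting called a member higher.

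Between 2 and 10 µM RNA fell further in the sterol arm, and ACLY, ACACA and FASN of the palmitate steps did not pass. Of the 33 members 22 were lower at 10 than at 2 µM and LPIN1 was higher, beside 21.6% lower and 16.8% higher in all genes, with medians of -1.20 in the members and -0.02 in all genes. The groups were apart, with 10 µM below, in 22 members (28.5% of all genes). In the sterol enzymes 14 of 18 were lower. The largest differences were in FADS2 (-3.47 ± 0.50, adjusted p = 0.000174), ACAT2 (-2.83 ± 0.37, adjusted p = 9.25e-05), SCD (-2.80 ± 0.43, adjusted p = 0.000291) and EBP (-2.31 ± 0.27, adjusted p = 3.49e-05). PMVK, which had not passed against untreated cells, was lower than at 2 µM (-1.06 ± 0.30, adjusted p = 0.0132), a call lost without 2 µM replicate 1 (adjusted p = 0.0641) and without 10 µM replicate 2 (0.0506). In the fatty acid enzymes 3 of 10 were lower, the desaturases SCD, FADS1 and FADS2. ACLY (-0.11 ± 0.16), ACACA (-0.42 ± 0.19), FASN (-0.29 ± 0.34), ACSS2 (-0.01 ± 0.23) and ELOVL6 (-0.30 ± 0.25) did not pass, with overlapping groups. Without 2 µM replicate 3 the count was 13 lower, as HMGCS1, MVK, SQLE, LSS, MSMO1, DHCR7, SREBF2, SCAP and STARD4 no longer passed. MVK, SQLE and DHCR7 were also lost without any 1 of the 10 µM libraries.

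Other genes of the same metabolism were read from lists of their own, beside 25.1% lower and 23% higher in all genes at 10 µM. At that dose 5 of 13 genes of SREBP processing and sterol-regulated degradation fell and 1 rose (median -0.32), with ERLIN1, an endoplasmic reticulum scaffold of sterol-regulated degradation, at -1.28 (adjusted p = 4.79e-05). The isoprenoid branch that leaves the pathway at farnesyl diphosphate had 3 lower and 2 higher of 12 (median -0.06), with PGGT1B, a prenyltransferase subunit, at 0.88 (adjusted p = 0.00202). In sterol uptake, movement, esterification and export 12 of 22 measured fell and 4 rose (median -0.90), with the sterol acyltransferase SOAT2 at -5.68 (adjusted p = 6.63e-07). Of the other genes of fatty acid and triglyceride synthesis 19 of 26 measured fell and 4 rose (median -1.44), with GPAM, the mitochondrial glycerol-3-phosphate acyltransferase, at -3.80 (adjusted p = 1.11e-07). In fatty acid oxidation 19 of 23 fell and all 23 changes were below 0 (median -1.19), with HADH, a mitochondrial dehydrogenase of that pathway, at -3.06 (adjusted p = 7.94e-07). At 2 µM only ACSL1, an acyl-CoA synthetase, passed in these 5 lists, as a rise of 1.17 (adjusted p = 0.0435).

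Accessibility at the gene starts moved little beside the RNA. For 32 members a peak overlapped a RefSeq promoter window, 250 bases before to 50 after an annotated start, and it is called the start peak here. In PMVK, ACLY, ACACA and LPIN1 that start lies inside the gene. Their start peaks are centred 5969, 11388, 47380 and 69115 bases past the outer end of the gene. In ACLY another peak, centred 31 bases past that end, rose at 10 µM (0.75). At 10 µM 1 start peak fell and 3 rose, beside 8.93% lower and 17% higher of the start peaks of 10999 genes, and the median change was -0.07 in the members and 0.11 in all of these genes. Of the 28 members whose RNA fell, 27 had a start peak: by edgeR none of these peaks fell (0 at an unadjusted p under 0.05), INSIG2's rose, and their changes lay between -0.31 and 0.36. In 23 of the 27 the 95% confidence interval of the start peak lay wholly above that of the RNA. These 27 were picked by their RNA falls, which puts their RNA intervals below 0 in advance. The same count was not made over all genes, so it describes these members and is no test. The intervals of RNA and start peak overlapped in SC5D, SREBF1, ACLY and ACACA. The peak of SCD read 29.8, 38.3 and 30.7 CPM untreated and 29.5 and 28.9 CPM at 10 µM (-0.18, interval -0.51 to 0.14), where its RNA fell 18.02-fold. The start peak of MSMO1 was at 87.6, 102 and 99.6 CPM and then 96.1 and 77.9 CPM (-0.14, interval -0.44 to 0.15). SREBF2 read 32.7, 35.6 and 34.8 CPM untreated and 38.5 and 43.3 CPM at 10 µM, with the interval from -0.07 to 0.54. These intervals bound the changes in accessibility and do not show that none took place.

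**Figure D4:**
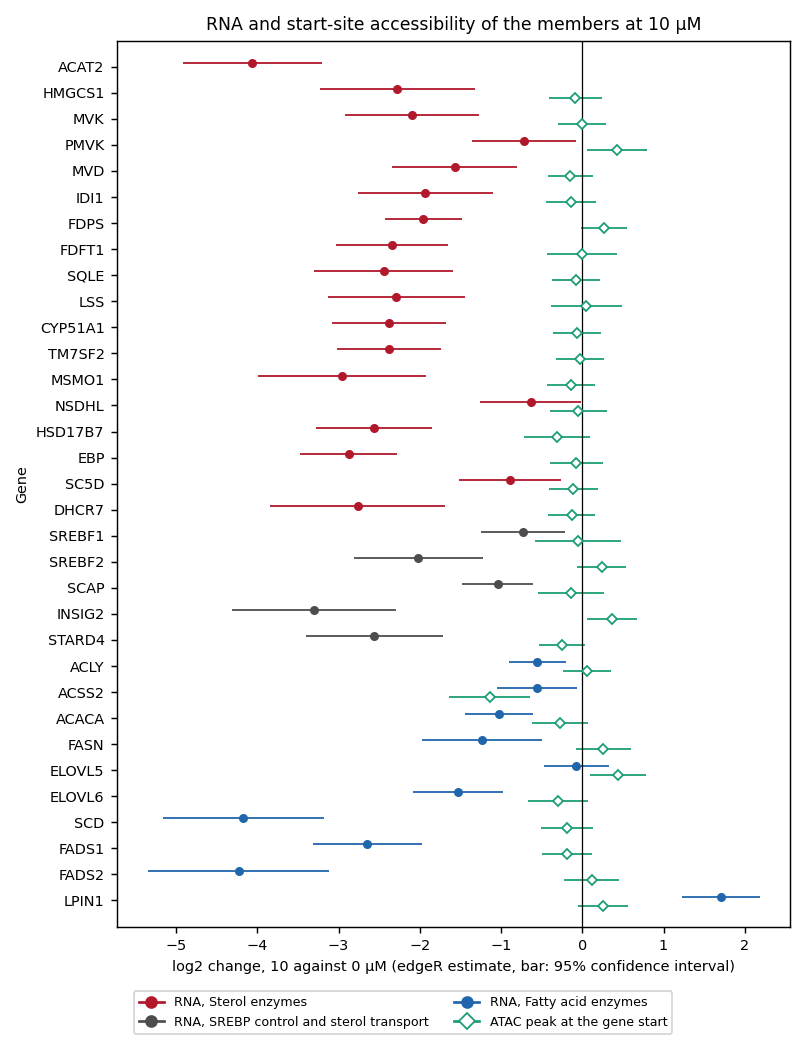
Log2 change at 10 against 0 µM (horizontal axis) of the RNA of each measured member (filled circles, coloured by arm) and of its start peak (open green diamonds), with bars for the 95% confidence interval. RNA estimates reach -4.23 while the start peaks lie between -1.14 (ACSS2) and 0.44 (ELOVL5).

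The start peak that fell was that of ACSS2, from 14.1, 13.1 and 15.5 CPM to 6.17 and 6.74 CPM (-1.14 ± 0.24, adjusted p = 0.000143), and its RNA did not pass. The rises were small, in PMVK (0.43, adjusted p = 0.0442), INSIG2 (0.36, adjusted p = 0.0403) and ELOVL5 (0.44, adjusted p = 0.0268), and each was lost under total counts, under DESeq2 and without untreated replicate 1 or 3 or 10 µM replicate 1. At 2 µM 7 start peaks fell, those of MVD, IDI1, LSS, DHCR7, INSIG2, FASN and FADS1, and by edgeR none rose (1 at an unadjusted p under 0.05), beside 5.72% lower and 2.16% higher of all start peaks. The median change was -0.21 in the members and -0.14 in all start peaks, with 87.5% and 75.6% of the changes below 0. The authors' annotation gives the start peaks of MVD, IDI1 and LSS to the neighbouring genes SNAI3-AS1, WDR37 and MCM3AP-AS1. DHCR7 was at 49.5, 55.3 and 50.6 CPM untreated and 36.8, 35.1 and 38.2 CPM at 2 µM (-0.49 ± 0.13, adjusted p = 0.00663), and read 51.4 and 42.8 CPM at 10 µM. All 3 ATAC libraries at 2 µM were below the untreated range there. Replicates 1 and 2 of this dose were the shallowest ATAC libraries, with 2907068 and 2896671 counts. The count of 7 was 3 without untreated replicate 2 and 2 without 2 µM replicate 1. Between 2 and 10 µM 6 start peaks were higher and 1 lower (29.8% and 5.91% of all start peaks), with medians of 0.24 in the members and 0.26 in all.

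A set of 4 promoters is printed as an example of the letters searched in all member windows: the regulator SREBF2, the sterol enzyme MSMO1, the desaturase SCD and LPIN1, whose RNA rose. Each is the 250 bases before the start on the plus strand in RefSeq's GRCh38.p14, at chr22:41832855-41833104, chr4:165327419-165327668, chr10:100346983-100347232 and chr2:11746382-11746631. The first 3 lie in 5′ flanking sequence just before their genes, and that of LPIN1 lies inside the annotated gene (chr2:11677544-11827409), before 1 of its 3 starts in the RefSeq windows. Capitals mark TCACNCCAC, the sterol regulatory element bound by SREBPs, in SREBF2, CCAAT, the box bound by NF-Y, in SREBF2, MSMO1 and SCD, and GGGCGG, the GC box bound by Sp1, in LPIN1, on either strand (the GC boxes of the other 3, of which their 300-base windows hold 3, 2 and 2, are not marked).
SREBF2: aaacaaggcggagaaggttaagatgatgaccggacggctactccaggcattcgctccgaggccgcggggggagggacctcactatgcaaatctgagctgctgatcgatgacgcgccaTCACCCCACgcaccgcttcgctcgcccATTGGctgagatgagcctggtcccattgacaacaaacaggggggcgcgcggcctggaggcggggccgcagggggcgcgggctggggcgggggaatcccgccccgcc
MSMO1: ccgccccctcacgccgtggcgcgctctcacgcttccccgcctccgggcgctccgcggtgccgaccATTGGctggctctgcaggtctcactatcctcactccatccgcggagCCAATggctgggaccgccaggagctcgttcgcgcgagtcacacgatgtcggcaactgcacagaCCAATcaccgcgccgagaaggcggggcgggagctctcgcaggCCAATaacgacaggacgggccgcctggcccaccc
SCD: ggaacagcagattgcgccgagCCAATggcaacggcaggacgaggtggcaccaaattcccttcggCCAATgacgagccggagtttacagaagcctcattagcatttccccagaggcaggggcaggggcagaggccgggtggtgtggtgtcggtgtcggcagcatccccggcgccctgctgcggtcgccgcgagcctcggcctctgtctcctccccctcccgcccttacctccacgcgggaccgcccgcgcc
LPIN1: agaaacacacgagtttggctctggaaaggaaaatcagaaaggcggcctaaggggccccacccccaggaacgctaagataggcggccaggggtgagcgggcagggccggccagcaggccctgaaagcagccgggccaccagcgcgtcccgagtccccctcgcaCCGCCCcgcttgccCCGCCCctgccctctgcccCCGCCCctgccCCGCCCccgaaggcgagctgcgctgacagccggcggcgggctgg
In SREBF2 the sterol element begins 133 bases before the start and the CCAAT box 106 before it. MSMO1 has 4 CCAAT boxes, SCD 2, and LPIN1 none in this window but 4 GC boxes. CCAAT was also missing from every window of CYP51A1, SREBF1, SCAP, INSIG2, ELOVL6 and FADS1, whose RNA fell at 10 µM. RefSeq gave 44 windows of 300 bases for 31 members, and those of ACAT2, FDFT1, SQLE and FASN were not analysed here. CCAAT was in 59.1% of the member windows and in 75% of the 20 windows of sterol enzymes, against 34.6% of all 35116 windows. GGGCGG was in 86.4% of member windows and 45% of all, and CACGTG, an E-box, in 13.6% and 7.26%. The sterol element in this strict spelling was in 1 member window, or 2.27%, and in 1.13% of all. Member windows had a median of 28 CpG dinucleotides and all windows 14. These are matches of letters on both strands and show no binding. The libraries analysed here hold no methylation values for these CpGs.

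Over all places, peaks labelled with the members changed in both directions. Of the 148 member peaks, start peaks included, 31 rose and 40 fell at 10 µM, beside 29.9% higher and 27.6% lower of all 58372 peaks, and 13 rose and 15 fell at 2 µM, beside 15.5% and 7.3%. Between 2 and 10 µM 28 rose and 39 fell (27.5% and 27.6%). Of the 70 member peaks that the authors' annotation calls promoter, 11 rose and 7 fell at 10 µM, beside 20.5% and 14.9% of all promoter peaks. Of the other 78, 20 rose and 33 fell, beside 34.6% and 34.1% of all other peaks. Of 77 peaks inside the gene bodies other than start peaks 14 rose and 26 fell at 10 µM, and the share of all peaks in such places was not computed. FASN had 16 peaks, of which 10 fell and 3 rose. The 4 that lie 466 to 2776 bases past its end all fell, by 1.99 to 2.10. At the strongest, chr17:82077016-82077516, ATAC signal was 53.6, 46.2 and 46.8 CPM untreated, 45.0, 36.8 and 30.6 CPM at 2 µM and 11.1 and 13.7 CPM at 10 µM (-1.99 ± 0.18, adjusted p = 3.98e-11). Both 10 µM libraries were under every other library there, while the start peak of FASN read 26.9, 30.6 and 30.5 CPM and then 40.0 and 29.8 CPM.

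The other peaks named are those with the smallest adjusted p at 10 µM. In intron 1 of SREBF1 (chr17:17830657-17831157) the signal fell from 48.0, 51.4 and 45.1 CPM to 12.2 and 16.5 CPM (-1.77 ± 0.17, adjusted p = 1.09e-10), and its start peak read 9.22, 6.66 and 8.52 CPM against 8.59 and 6.52 CPM. In intron 5 of SCD (chr10:100359856-100360356) it fell from 18.7, 16 and 16.9 CPM to 2.95 and 3.70 CPM (-2.38 ± 0.26, adjusted p = 1.3e-09). A peak labelled MVK (chr12:109586394-109586894) fell by 2.43 (adjusted p = 1.78e-09). The authors' annotation calls it a promoter peak, and its centre lies 13372 bases past the start of the gene. A peak labelled PMVK that the authors' annotation puts in a 3′ UTR (chr1:154944682-154945182) fell by 2.41 (adjusted p = 4.88e-11). Its centre lies outside the RefSeq gene of PMVK, 2274 bases before the start. None of these 4 peaks passed between 0 and 2 µM. Openings were as large. In intron 3 of ACLY (chr17:41910634-41911134) the signal rose at both doses, from 4.85, 1.5 and 3.98 CPM to 6.87, 12.4 and 13 CPM at 2 µM (1.81 ± 0.29, adjusted p = 2.22e-05) and 33.4 and 32 CPM at 10 µM (3.36 ± 0.26, adjusted p = 1.08e-12), while its RNA fell at 10 µM. In intron 2 of ACSS2 (chr20:34891117-34891617) it rose from 2.67, 1.77 and 2.08 CPM to 5.5, 3.78 and 4.5 CPM at 2 µM and 21.2 and 20.7 CPM at 10 µM (3.30 ± 0.25, adjusted p = 9.6e-13 at 10 µM).

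INSIG1 and ME1 had no start peak but had distal peaks that rose at 10 µM. Their RNA counts were too low for a test, and for INSIG1 the source of the low count is not known, so the peaks are given without a comparison with RNA. A peak centred 6667 bases before INSIG1 (chr7:155290961-155291461) rose from 5.09, 3.53 and 4.36 CPM to 13.3 and 13.3 CPM (1.65 ± 0.25, adjusted p = 9.05e-07). Both peaks labelled ME1, centred 30601 and 33924 bases before its start, rose, the farther from 1.70, 0.408 and 0.947 CPM to 11 and 12.6 CPM (3.66 ± 0.37, adjusted p = 2.67e-10). Around INSIG2 the directions differed: a peak centred 2032 bases before the gene fell (-2.17 ± 0.30, adjusted p = 1.24e-07) while 1 in the intergenic DNA downstream (chr2:118123408-118123908) rose (1.98 ± 0.25, adjusted p = 1.88e-08), with 31.1 CPM in 10 µM replicate 1 and 14.6 CPM in replicate 2.

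**Figure D5:**
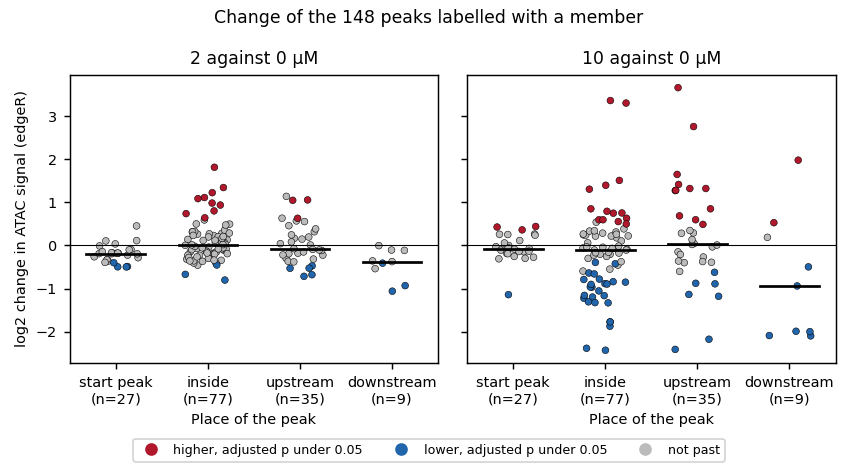
Log2 change in ATAC signal (vertical axis) of the 148 peaks labelled with a member at 2 µM (left) and 10 µM (right), by place relative to the RefSeq gene, with peaks that rose in red and fell in blue and a bar at each median. The 27 start peaks that carry the symbol of a member lie between -1.14 (ACSS2) and 0.44 (ELOVL5) at 10 µM, while peaks inside, upstream and downstream spread widely.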

How the data were processed

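The authors deposited raw counts of reads per gene (RNA) and per peak (ATAC). The tools HTSeq 2.0.4, HISAT2 2.2.1, DiffBind 3.12.0 and DESeq2 1.42.1 and the build hg38 are named per the submitters' processing notes. Strand use and peak caller: not given in the sources used here. Symbols came from a gene name table that matched 62666 of 63187 identifiers.

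Each assay was fitted once over all its libraries with edgeR 4.0.16 in R 4.3.3 (quasi-likelihood F-test, TMM scaling, its filter on low counts, prior count of 0.125), and p-values were adjusted by Benjamini-Hochberg over 18999 genes or 58372 peaks. The code was tested on simulated data. The members, gene lists and motifs were chosen with earlier results of these data known. The rule for named items was all 35 members, the called peaks with the 8 smallest adjusted p per comparison or of the SREBP control genes, and up to 3 called genes per list, of which those at 10 µM are mostly given. Start peaks were defined after it was seen that the deposited symbols name a neighbour for 6 members (MVK, MVD, IDI1, LSS, NSDHL and FADS2). The group of FASN peaks past the gene end was chosen after its values were seen. The comparisons of 2 and 10 µM with untreated share their 3 control libraries.

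Over all tested genes the replicate numbers weakly paired libraries of 0 and 2 µM in RNA, where deviations from the group means correlated at 0.194, 0.264 and 0.283, and not in the other comparisons. The alternatives were other scaling, no filter, DESeq2 1.42.0, fits of 2 doses, a replicate block and each library left out.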

Additional observations from a re-analysis of the deposited data

How the results depend on the processing

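The falls of RNA at 10 against 0 µM kept to 28 with RLE scaling and ranged from 25 to 30 when any 1 library was left out, and LPIN1 rose in each of these fits. With the replicate block over 0 and 10 µM the fall of ACLY was lost (adjusted p = 0.0549) and ACSS2 passed as lower (0.0482). At 2 against 0 µM the count of members lower was 1, and 21 without the filter, 10 under DESeq2, 6 with the replicate block over all doses, 8 with the replicate block over 0 and 2 µM, 27 without the replicates 3 of both doses, and 0 to 23 with any 1 library left out. At 10 against 2 µM it was 13 to 23 with any 1 left out. The difference of arm medians was -0.27, -1.19 and -1.03 (2 against 0, 10 against 0 and 10 against 2 µM), with ranges of -0.41 to -0.11, -1.30 to -1.06 and -1.15 to -0.62 when 1 library was left out. Without both replicates 3 it was -0.52 at 2 against 0 µM and -0.62 at 10 against 2 µM.

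Member peaks lower at 2 against 0 µM numbered 15, 24 in a fit of these doses alone, 28 in that fit with the replicate block, and 7 to 25 with 1 library left out. Member peaks higher there ranged from 8 to 14. Start peaks, an alternative chosen after seeing the data, were higher at 10 against 0 µM in 3 members, in 1 with RLE scaling or the replicate block over all doses, in 0 under total counts, DESeq2 or a fit of these doses with or without the block, and in 0 to 3 with 1 library left out. They were lower there in 1, in 2 under total counts and in 1 to 3 with 1 left out. At 10 against 2 µM they were higher in 6, in 3 under total counts or with either replicate block, and in 2 to 6 with 1 left out, and lower in 1, in 2 under total counts and in 1 to 2 with 1 left out. At 2 against 0 µM 2 to 10 were lower with 1 left out. The causes were not tested. Precision in ATAC is limited by 2 libraries at 10 µM and by the low totals of 2 libraries at 2 µM. None of the values computed under these alternatives reversed a call.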

Other observations

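A few peaks inside members were higher at 2 µM and lower at 10 µM than untreated. They were chosen after their values were seen. In exon 26 of ACLY (chr17:41869355-41869855) the ATAC signal was 5.82, 3.53 and 3.22 CPM untreated, 13.4, 8.94 and 9.27 CPM at 2 µM and 2.01 and 2.39 CPM at 10 µM. In FASN (chr17:82093826-82094326) it was 11.4, 5.3 and 8.71 CPM, then 19.6, 16.5 and 12.4 CPM, then 4.16 and 4.57 CPM. In LPIN1 (chr2:11822699-11823199) it was 13.1, 12.1 and 13.3 CPM, then 25.4, 25.4 and 18.1 CPM, then 5.63 and 9.79 CPM. No library at 2 µM overlapped with either other dose in these 3 peaks. The log2 change from 2 to 10 µM by edgeR was -2.24 ± 0.33 in ACLY (adjusted p = 1.01e-06), -1.84 ± 0.29 in FASN (adjusted p = 2.39e-06) and -1.59 ± 0.23 in LPIN1 (adjusted p = 5.96e-07). Against untreated, the 10 µM falls were lost without 10 µM replicate 1.

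Hepatocyte markers at 2 µM had 2 of 13 lower with a median of -0.41, beside 1.06% lower and a median of -0.01 in all genes. The 2 were TTR at -1.68 (adjusted p = 0.02) and ALB at -1.39 (adjusted p = 0.0247). ALB, the secreted albumin, was at 18289, 13576 and 24443 CPM untreated and 5289, 6101 and 10159 CPM at 2 µM, so all 3 libraries of that dose, replicate 3 included, were below the untreated range. The lipogenic transcription factor MLXIPL was at 47.4, 43.8 and 53.3 CPM untreated, 36.8, 28.6 and 92.2 CPM at 2 µM and 3.88, 6.27 and 5.86 CPM at 10 µM (-3.17 ± 0.39 at 10 against 0 µM, adjusted p = 2.95e-05 by edgeR).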
